A study of Mus musculus with 12 samples.

Results

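The Toll-like receptor genes described here are the 10 members Tlr1 to Tlr9 and Tlr13, taken by symbol from 3 comparison tables of mouse bone marrow-derived macrophages, in each of which all 10 had 1 row among 21893, 21923 and 23248 listed genes. The cells came from the marrow of male C57BL/6 mice 8 to 16 weeks old and were grown for 7 days with 10 ng/mL macrophage colony stimulating factor, which stayed in the medium. Of 12 RNA-seq libraries, 3 were untreated controls, 3 were taken after 4 h and 3 after 24 h of monophosphoryl lipid A (MPLA), a low-toxicity derivative of lipopolysaccharide, and 3 were taken 3 d after the end of priming. All libraries carry the strain label C57BL/6 and no knockout label. For the last group the length of priming is not in the labels, nor is the harvest time of the controls. Nothing in them ties the 3 libraries of a group to separate mice or dishes, so the replicate spread behind each p-value may be only technical.

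Toll-like receptors are membrane proteins that detect microbial molecules through an outer domain of leucine-rich repeats and signal through an inner TIR domain, which recruits the adaptors MyD88 and TRIF. Tlr4, together with the proteins encoded by Ly96 and Cd14, detects lipopolysaccharide and is the receptor for MPLA. Tlr2 pairs with Tlr1 or Tlr6 to detect bacterial lipopeptides, Tlr5 detects flagellin, and Tlr3, Tlr7, Tlr8, Tlr9 and Tlr13 sit in endosomes and detect nucleic acids.

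The tables hold the authors' comparisons and no values per library. Their unscaled log2 ratio, however, equalled a ratio of 2 whole numbers for 16337 of the 16349 genes with a finite ratio at all 3 times, within a relative tolerance of 2e-14. Each ratio is in lowest terms, so a factor common to both sums is lost from it. The number on the control side was the same in all 3 tables for 37.7% of those genes and in at least 2 for 83.3%, and otherwise the least common multiple was taken. These numbers are taken here as reads summed over the 3 libraries of a group, known up to a whole factor common to the 4 groups of a gene. They add up to 73.8 M reads for the controls, 63.0 M at 4 h, 68.7 M at 24 h and 171 M at 3 d after priming. The resulting depth ratios to control of 0.854, 0.931 and 2.32 lie beside 0.860, 0.935 and 2.32 from the constant between the edgeR change and the unscaled ratio in the authors' deposited tables. Levels below are RPKM, the reads of a gene per kb of exon and per M reads of these totals. They have no spread over libraries, and their intervals, exact Poisson or binomial at 95%, cover counting error only.

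Changes are log2 of MPLA over control. They and their adjusted p-values come from the authors' deposited tables, and a gene was called at a DESeq2 adjusted p under 0.05. The scaling matters for direction. In the authors' deposited tables DESeq2 changes lie above edgeR changes by 0.94 at 4 h, 0.41 at 24 h and 0.13 at 3 d after priming. The median change of all listed genes was -1.05, -0.53 and -0.14 with edgeR, and that of the genes tested with DESeq2 was -0.04, -0.05 and -0.02, in the authors' deposited tables. Ratios between 2 receptor genes within a group do not depend on this scaling. Any whole factor lost from a gene does enter them, as it enters levels, ranks and shares, and no interval given here covers it. The fold by which such a ratio differs between groups is free of that factor. The 3 comparisons share their controls, and no difference between times was tested.

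All 6 macrophage markers were present in the controls, with Csf1r at 725, Cd68 at 722 and Adgre1 at 679 RPKM and the lowest, Fcgr1, at 53.8. Summed levels of the 6 were 2424 in the controls, 1837 at 4 h, 3498 at 24 h and 2930 at 3 d, but the 6 did not move together. Adgre1 went from 679 to 2263 and Fcgr1 from 53.8 to 529 at 24 h, while Csf1r went from 725 to 189 and Mertk from 78.1 to 18.2. Lists for other cells that carry these receptors held markers near 0 and others well above it. Above it in the controls were Bst2 at 147, Itgax at 9.73, Tcf4 at 4.32 and Cd79b at 2.21 with 233 reads. S100a8 at 1.33 with 68 reads and Cox6a2 at 1.04 with 52 reads also lay above it. Tcf4 stood at 10.6 at 4 h, and Xcr1 had 24 reads in the controls and 169 at 4 h. Near 0 in the controls, Siglech of plasmacytoid dendritic cells had 5 reads, Flt3 of dendritic cell precursors 3, Cd79a of B cells 3 and Ms4a1 of B cells 5, and Pax5 and Ccr7 were listed at 0. The summed level of the 5 plasmacytoid markers went from 153 in the controls to 1249 at 24 h, of which Bst2, also an interferon-response gene, made 1245, and Siglech was listed at 0 at 24 h. Summed dendritic cell markers lay between 1.93 and 9.89, neutrophil markers between 1.15 and 1.39, B cell markers between 0.591 and 2.92 and stromal markers between 0.00839 and 0.0927 over the 4 groups, leaving out genes listed at 0 in the controls, whose MPLA reads are unknown. The T and NK cell markers found, Cd3e and Cd3d, were at 0 in the controls. In such bulk RNA, a change in the number of cells of a type and a change in RNA per cell cannot be told apart.

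The controls already held transcripts of all 10 receptors, at very different levels. Tlr13, a mouse receptor for bacterial ribosomal RNA, was highest with 43027 reads, or 135 RPKM. Tlr8 followed at 106, Tlr7 at 78.3 and Tlr2 at 56.2. Tlr4 stood at 25.8 and Tlr1 at 18.0. Tlr9 at 9.88 and Tlr6 at 9.11 had neighbouring levels, and Tlr3 stood at 4.89. Tlr5 was lowest, at 0.402, with 142 reads in the 3 control libraries together. The order of Tlr9 and Tlr6 rests on a gap that cannot be set against a spread between libraries. Weighed per kb, the 5 endosomal receptors made up 75.3% of all receptor transcripts in the controls.

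**Figure D1:**
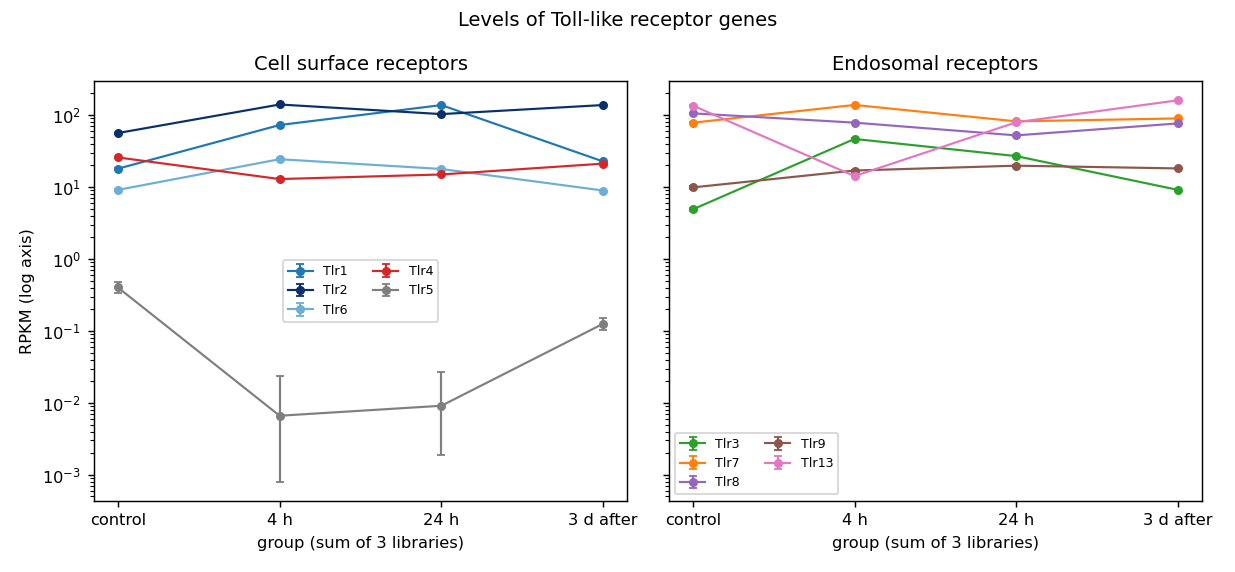
Level of each receptor gene in the 4 groups, in RPKM on a log axis, from reads summed over 3 libraries. Bars are exact 95% Poisson intervals, which cover counting error only. Tlr13 drops from 135 to 14.2 at 4 h and is at 160 at 3 d after priming, while Tlr5 lies under every other receptor throughout.

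At 4 h the authors' deposited table had 7 of the 10 receptor genes higher and 2 lower, where 31.8% of all tested genes were higher and 31.0% lower. At 24 h 6 were higher and 4 lower in the authors' deposited table, with 32.4% and 32.2% of all tested genes called in those directions. At 3 d after priming 6 were higher and 3 lower in the authors' deposited table, against 29.5% and 25.8% of all tested genes. The edgeR columns of the authors' deposited tables gave 6 higher and 4 lower at 4 h, 5 and 4 at 24 h and 6 and 3 at 3 d, where 13.5%, 16.2% and 15.5% of all listed genes were higher and 50.1%, 41.8% and 27.7% lower. The median DESeq2 change of the 10 was 1.73, 0.88 and 0.36 in the authors' deposited tables, and with edgeR it was 0.79, 0.47 and 0.23. Called in either direction by DESeq2 were 9 receptor genes at 4 h, 10 at 24 h and 9 at 3 d in the authors' deposited tables, against 62.9%, 64.6% and 55.2% of all tested genes. By edgeR 10, 9 and 9 were called in the authors' deposited tables, against 63.6%, 58.0% and 43.3%. With shares of that size among all genes, nothing is read from the total count of receptors called. All 10 were tested at every time. For members other than Tlr5 the standard error implied by a DESeq2 p-value in the authors' deposited tables was at most 0.11, that bound being for Tlr3 at 4 h. Cell surface and endosomal receptors both split. At 4 h 3 of the 5 surface receptors were higher and 1 lower, and 4 of the 5 endosomal receptors were higher and 1 lower, in the authors' deposited table, whereas with edgeR both classes had 3 higher and 2 lower.

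**Figure D2:**
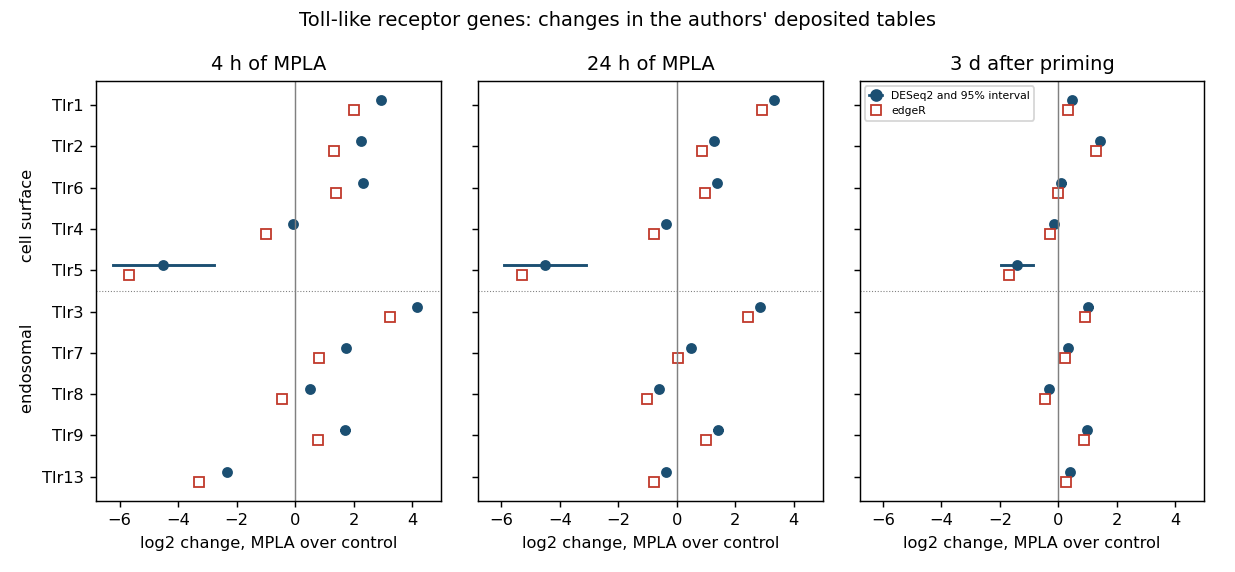
Change of each receptor gene, as log2 of MPLA over control, in the authors' deposited tables at 3 times. Filled points are DESeq2 values with the 95% interval that their p-value implies (hidden behind the point where narrow, not drawn where the stored p is at or near 0) and open squares are edgeR values. At 4 h the squares lie about 0.94 below the points, so that Tlr8 has opposite signs with the tools.

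Among the lipopeptide receptors, Tlr2 and its partners Tlr1 and Tlr6 were all called higher at 4 h and 24 h, but by different amounts. The level of Tlr1 was higher at 24 h than at 4 h, while those of Tlr2 and Tlr6 were lower. Tlr2, the shared chain of both pairs (chromosome 3, 83836272 to 83841767 in GRCm38, minus strand), had 12505 reads in the controls, 26636 at 4 h, 21352 at 24 h and 71039 at 3 d, or 56.2, 140, 103 and 138 RPKM. Its level was above the controls in all 3 MPLA groups. The DESeq2 change of Tlr2 in the authors' deposited tables was 2.25 at 4 h, 1.29 at 24 h and 1.43 at 3 d, the last with an adjusted p of 9.95e-258. With edgeR the values were 1.32, 0.88 and 1.30 in the authors' deposited tables. At 3 d after priming this was the largest rise of the 10 members, and 96.3% of tested genes had a lower change in the authors' deposited table.

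Tlr1, the partner of Tlr2 for triacylated lipopeptides (chromosome 5, 64924679 to 64933563, minus strand), had 4438 reads in the controls, 15333 at 4 h, 31616 at 24 h and 12963 at 3 d. Its level went from 18.0 in the controls to 72.7 at 4 h and 138 at 24 h, where it was the highest of all 10 members, and stood at 22.6 at 3 d. With DESeq2 Tlr1 rose in the authors' deposited tables by 2.94 at 4 h, by 3.34 or 10.2-fold at 24 h and by 0.47 at 3 d (implied standard error 0.05, DESeq2 adjusted p of 8.10e-23). With edgeR the rises were 2.01, 2.93 and 0.34 in the authors' deposited tables.

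Tlr6, the partner of Tlr2 for diacylated lipopeptides (chromosome 5, 64952031 to 64960097, minus strand), lies 18.5 kb from Tlr1 on the same strand. It had 2507 reads in the controls, 5720 at 4 h, 4560 at 24 h and 5696 at 3 d, or 9.11, 24.4, 17.8 and 8.93 RPKM. Tlr6 rose in the authors' deposited tables by 2.34 at 4 h and 1.37 at 24 h with DESeq2, and by 1.41 and 0.96 with edgeR. At 3 d it was the only one of the 10 not called, with a DESeq2 change of 0.11 in the authors' deposited table, a 95% interval of -0.01 to 0.22 and an adjusted p of 0.114, and with edgeR it stood at -0.03.

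The balance of the Tlr2 partners shifted. Per kb, Tlr1 to Tlr6 stood at 1.97 in the controls (95% interval 1.88 to 2.07), 2.99 at 4 h, 7.72 at 24 h (7.49 to 7.97) and 2.53 at 3 d. Against Tlr2 itself, Tlr1 went from 0.320 in the controls to 0.519 at 4 h and 1.33 at 24 h, and to 0.164 at 3 d. Tlr6 to Tlr2 was 0.162 in the controls, 0.174 at 4 h, 0.173 at 24 h and 0.0648 at 3 d. In these summed reads both partners were scarcest relative to Tlr2 at 3 d after priming. Of the 50-base windows along Tlr1 transcripts 15.4% also occur in another gene, as do 12.3% of those of Tlr6, mostly in each other, so reads from these stretches may be lost or split and both values are uncertain to that extent.

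Tlr4, the receptor that MPLA itself engages (chromosome 4, 66827584 to 66930284, plus strand), was not called higher at any time with DESeq2 or edgeR. It had 10571 reads in the controls, 4517 at 4 h, 5703 at 24 h and 20090 at 3 d, and levels of 25.8, 12.9, 14.9 and 21.1 RPKM. All 3 MPLA groups lay below the controls on this scale. At 4 h the DESeq2 change was -0.08 in the authors' deposited table, with a 95% interval of -0.17 to 0.02 and an adjusted p of 0.159, while edgeR gave -1.01 and an adjusted p of 7.59e-153. The baySeq error rate at 4 h was 0.037. Tlr4 lay near the median change with either tool, which at 4 h was -0.04 with DESeq2 and -1.05 with edgeR. Whether Tlr4 fell at 4 h thus depends on the scaling. It fell at 24 h, by a DESeq2 change of -0.38 (implied standard error 0.04, adjusted p of 2.29e-18) and an edgeR change of -0.79 in the authors' deposited table. The fall at 3 d was small, with -0.16 from DESeq2 (0.04, adjusted p of 6.82e-05) and -0.29 from edgeR in the authors' deposited table, and the baySeq error rate for it was 0.739.

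Set against Tlr4 within the same libraries, Tlr2 stood at 2.18 per kb in the controls, 10.9 at 4 h, 6.90 at 24 h and 6.52 at 3 d. Tlr4 went from 5.81% of receptor transcripts per kb in the controls to 2.37% at 4 h and 2.80% at 24 h, and to 3.88% at 3 d. It was the fifth most abundant receptor in the controls and ranked 9 of 10 at 4 h and 24 h.

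Tlr5, the flagellin receptor (chromosome 1, 182954788 to 182976044, plus strand), was the most lowered member and the weakest expressed. Its 142 reads in the controls compare with 2 at 4 h, 3 at 24 h and 103 at 3 d. Both MPLA exposures lay far below the controls, and at 3 d the level was in between, at 0.126 against 0.402 RPKM. The DESeq2 change of Tlr5 in the authors' deposited tables was -4.51 at 4 h (implied standard error 0.88, adjusted p of 7.58e-07), -4.50 at 24 h (0.72, adjusted p of 8.87e-10) and -1.42 at 3 d (0.28, adjusted p of 1.05e-06). With edgeR it was -5.70, -5.29 and -1.68 in the authors' deposited tables. Scaled to total reads, the control level was 60.6 times that at 4 h with a counting interval of 16.5 to 506, 44.1 times that at 24 h (14.8 to 216) and 3.19 times that at 3 d (2.46 to 4.16).

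Among the endosomal receptors, Tlr3 showed the largest rise at all 3 times and Tlr13 the largest fall at 4 h, while at 24 h and 3 d Tlr8 was lowest. Tlr3, the receptor for double-stranded RNA, which signals through TRIF alone (chromosome 8, 45395665 to 45411080, minus strand), had 1879 reads in the controls, 15284 at 4 h, 9616 at 24 h and 8120 at 3 d. Its level went from 4.89 to 46.6, 26.9 and 9.12 RPKM. Tlr3 rose in the authors' deposited tables by 4.17 or 18.1-fold at 4 h, by 2.86 or 7.28-fold at 24 h and by 1.02 or 2.03-fold at 3 d with DESeq2 (adjusted p of 4.79e-60 at 3 d), and by 3.24, 2.45 and 0.90 with edgeR. At 4 h 96.7% of tested genes had a lower change in the authors' deposited table. Tlr3 ranked 9 of 10 by level in the controls and 5 at 4 h. An exon of the opposite-strand gene Gm45542 covers 7.32% of its exonic bases, and the sources used here do not say whether reads were counted by strand.

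Tlr13 (chromosome X, 106143204 to 106160493, plus strand) had 43027 reads in the controls, 3844 at 4 h, 23483 at 24 h and 118102 at 3 d. The level of 135 in the controls became 14.2 at 4 h, 79.4 at 24 h and 160 at 3 d. The 4 h group was far below the other 3 groups, and the 3 d group was the highest. Tlr13 fell at 4 h and 24 h, with DESeq2 changes of -2.33 and -0.36 (implied standard error 0.03 and adjusted p of 9.65e-30 at 24 h) and edgeR changes of -3.27 and -0.78 in the authors' deposited tables. The DESeq2 change at 4 h is a 5.04-fold lower level in the authors' deposited table. At 3 d it was higher by 0.38 with DESeq2 (adjusted p of 3.98e-28) and by 0.25 with edgeR in the authors' deposited table. Its rank among the 10 receptors by level went from 1 in the controls to 8 at 4 h and 4 at 24 h, and was 1 again at 3 d.

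Tlr7, a receptor for single-stranded RNA (chromosome X, 167304929 to 167330558, minus strand), had 23589 reads in the controls, 35564 at 4 h, 22916 at 24 h and 62719 at 3 d. Levels were 78.3, 138, 81.7 and 89.8 RPKM, so only the 4 h group stood well above the controls. DESeq2 changes of Tlr7 were 1.75 at 4 h, 0.47 at 24 h (implied standard error 0.03) and 0.34 at 3 d, all called, in the authors' deposited tables. With edgeR the changes were 0.81, 0.06 and 0.21 in the authors' deposited tables, and the 24 h value did not pass (adjusted p of 0.14). The baySeq error rate for Tlr7 was 9.57e-09 at 24 h and 0.117 at 3 d in the authors' deposited tables.

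Tlr8, the neighbour of Tlr7 at 40.6 kb (chromosome X, 167242696 to 167264329, minus strand) and a close relative of it, took another course. It had 27986 reads in the controls, 17731 at 4 h, 12855 at 24 h and 46974 at 3 d, or 106, 78.5, 52.2 and 76.6 RPKM. At 4 h the tools disagreed on direction, with 0.50 from DESeq2 (adjusted p of 2.27e-39) and -0.44 from edgeR (adjusted p of 5.65e-31) in the authors' deposited table. Tlr8 fell at 24 h and 3 d, with DESeq2 changes of -0.61 (implied standard error 0.04) and -0.33 (0.03) and edgeR changes of -1.02 and -0.46 in the authors' deposited tables. For the fall at 3 d the baySeq error rate was 0.723 in the authors' deposited table. Within the libraries, Tlr8 to Tlr7 per kb was 1.35 in the controls (95% interval 1.33 to 1.37), 0.568 at 4 h, 0.639 at 24 h and 0.853 at 3 d.

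Tlr9, the receptor for unmethylated CpG DNA (chromosome 9, 106222598 to 106226883, plus strand), had 2535 reads in the controls, 3717 at 4 h, 4730 at 24 h and 10785 at 3 d, or 9.88, 17.0, 19.8 and 18.1 RPKM. On this scale, though not with DESeq2, the 3 MPLA groups lay close together, and all were above the controls. Tlr9 rose in the authors' deposited tables by 1.71, 1.41 and 0.99 with DESeq2 (adjusted p of 3.43e-145, 6.68e-109 and 6.92e-71), and by 0.77, 1.00 and 0.87 with edgeR.

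Ratios between the RNA and DNA sensors moved in different ways. Tlr13 to Tlr7 per kb was 1.73 in the controls (95% interval 1.70 to 1.76), 0.103 at 4 h, 0.972 at 24 h and 1.79 at 3 d (1.77 to 1.80). Tlr3 to Tlr9 was 0.495 in the controls (0.466 to 0.526), 2.75 at 4 h, 1.36 at 24 h and 0.503 at 3 d (0.489 to 0.518). By counting error alone, the control and 3 d values of Tlr3 to Tlr9 overlap. Tlr9 to Tlr7 was 0.126 in the controls and 0.123 at 4 h, and 0.242 and 0.202 at 24 h and 3 d.

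Across all 10 genes, receptor transcripts summed to 1750 reads per M reads in the controls, 2036 at 4 h, 1992 at 24 h and 2085 at 3 d. These sums are scaled to total reads. The DESeq2 depth ratio to control at 4 h was 0.449 against 0.860 with edgeR, so its scaling would put the 4 h sum higher. Whether the sum or the make-up changed more thus depends on the scaling, and the make-up itself does not. The endosomal share per kb went from 75.3% in the controls to 54.1% at 4 h, 48.7% at 24 h and 65.0% at 3 d. At 4 h Tlr2 and Tlr7 held the largest shares, 25.7% and 25.4%, and Tlr13 held 2.60% against 30.5% in the controls. At 24 h Tlr1 held 25.8% and Tlr2 19.3%. At 3 d Tlr13 was back at 29.5%, next to Tlr2 at 25.3% against 12.7% in the controls.

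**Figure D3:**
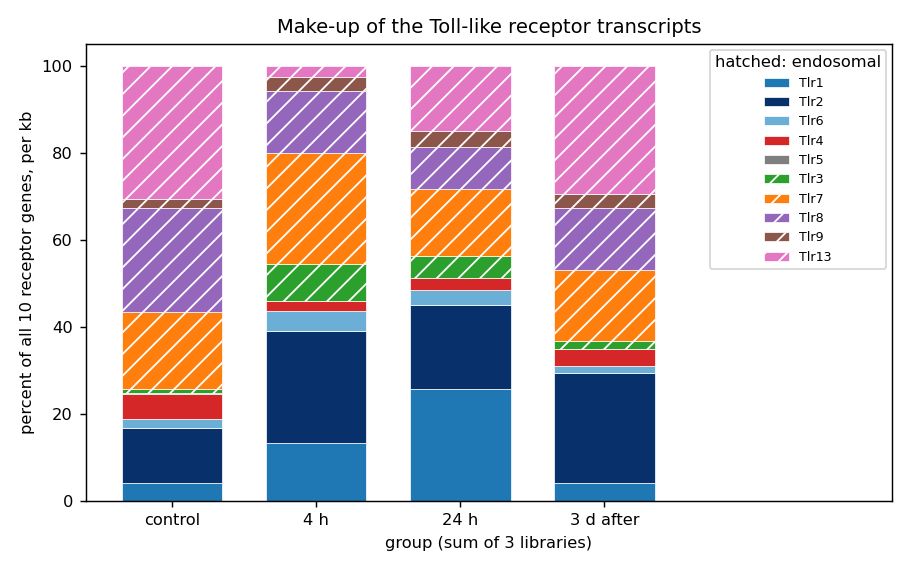
Share of each gene, in percent, in the summed reads per kb of the 10 receptor genes, by group, from reads summed over 3 libraries. Hatched parts are endosomal receptors, whose share is 75.3%, 54.1%, 48.7% and 65.0% from left to right; Tlr5 is too scarce to be seen.

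The tables also list Tlr11 and Tlr12, which lie outside the 10 members. Tlr11, a receptor for profilin of protozoa, had 11 reads in the controls, 26 at 4 h, 21 at 24 h and 30 at 3 d, and was called only at 4 h, at 2.24 (DESeq2 adjusted p of 0.00217) in the authors' deposited table. Tlr12 had 5, 1, 7 and 13 reads and was not called at any time in the authors' deposited tables.

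Genes that serve the receptors were read from lists chosen with earlier results of these data known. Beside all list counts below, DESeq2 called 31.8% of all tested genes higher and 31.0% lower at 4 h in the authors' deposited table. The shares were 32.4% and 32.2% at 24 h and 29.5% and 25.8% at 3 d. With edgeR they were 13.5% and 50.1%, 16.2% and 41.8%, and 15.5% and 27.7% of all listed genes. Nothing is read from list counts near these shares. Of 7 accessory and co-receptor genes, 5 were higher and 0 lower at 4 h in the authors' deposited table (3 and 2 with edgeR), with a median of 1.92. Cd180, a relative of Tlr4 that lacks the TIR domain and has the partner Ly86, and Cd14 were highest, both at 2.34, and Ly96, whose product holds lipid A, stood at 1.92 in the authors' deposited table. Lowest of the called genes in the authors' deposited table were Ly86 at 0.94, which did not pass with edgeR (adjusted p of 0.999), and the scavenger receptor gene Cd36 at 0.19, which edgeR put at -0.75. At 24 h 4 of 6 tested were higher and 2 lower in the authors' deposited table, with Cd180 at 1.37, Cd14 at 1.05, Ly96 at 0.73, Ly86 at 0.63, Cd36 at -0.83 and Lbp, the lipopolysaccharide-binding protein gene, at -0.86. At 3 d 3 of 6 were higher and 1 lower in the authors' deposited table, with Lbp at 1.79, Cd14 at 1.17, Cd180 at 0.85 and Cd36 at -0.44, while Ly96 (0.04) and Ly86 (0.03) did not pass.

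Of 15 folding, trafficking and processing genes, 10 were higher and 5 lower at 4 h in the authors' deposited table, but 2 higher and 12 lower with edgeR, with a DESeq2 median of 0.27. Slc15a3, an endosomal peptide transporter, was highest (3.20), followed by Ap3b1 (1.19), and Rab7b (-2.42) and the chaperone genes Cnpy4 (-1.19) and Cnpy3 (-1.19) were lowest in the authors' deposited table. Unc93b1, which escorts the nucleic acid receptors to endosomes, turned from 0.50 with DESeq2 to -0.43 with edgeR, and Hsp90b1, the receptor chaperone gp96, from 0.57 to -0.36, in the authors' deposited table. At 24 h 7 were higher and 6 lower in the authors' deposited table (2 and 10 with edgeR), with Slc15a3 at 3.19, Hsp90b1 at 0.52, Unc93b1 at 0.40 (-0.01 with edgeR), Cnpy3 at 0.09 (adjusted p of 0.0601) and the cathepsin genes Ctsb and Ctsl at -0.64. At 3 d 10 were higher and 3 lower in the authors' deposited table (5 and 5 with edgeR). Slc15a3 stood at 1.15, Rab7b at 0.52, Unc93b1 at 0.16, Lgmn at -0.18 and Hsp90b1 at -0.32 in the authors' deposited table, and Cnpy3 at -0.08 did not pass. With edgeR Unc93b1 stood at 0.03 and did not pass (edgeR adjusted p of 0.598).

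Of 16 adaptors and proximal kinases, 12 were higher and 4 lower at 4 h in the authors' deposited table (9 and 7 with edgeR), with a median of 1.14. Irak2 (3.13) and Myd88 (2.84) were highest, Ticam1, which encodes TRIF, stood at 1.18, and Irak4 (-1.22) and Tab1 (-1.70) were lowest in the authors' deposited table. At 24 h 12 were higher and 3 lower in the authors' deposited table (8 and 5 with edgeR), with Irak2 at 1.84, Pik3ap1 at 1.76, Myd88 at 1.05, Ticam1 at 1.00, Irak1 at -0.52 and Irak4 at -0.58. At 3 d 7 were higher and 4 lower in the authors' deposited table (7 and 8 with edgeR), with Ikbke and Pik3ap1 at 1.31, Myd88 at 0.35, Ticam1 at 0.32, Tab1 at -0.34 and Irak4 at -0.35.

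Of 11 pathway inhibitors, 5 were higher and 3 lower at 4 h in the authors' deposited table (3 and 7 with edgeR), with Tnfaip3, which encodes A20, at 5.75, Ptpn6 at 1.19, Sigirr at -3.08 and Inpp5d at -4.07. At 24 h 5 were higher and 5 lower in the authors' deposited table (3 and 6 with edgeR). Tnfaip3 stood at 3.18, the decoy kinase gene Irak3 at 3.01, Sigirr at -2.60 and Il1rl1 at -4.77 in the authors' deposited table. The Il1rl1 value rests on 90 reads in the controls and 1 at 24 h. At 3 d 5 were higher in the authors' deposited table (4 with edgeR), led by Irak3 (2.05) and Tnfaip3 (1.79), and the 1 lower gene was Il1rl1 (-2.27), with 4 lower with edgeR.

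Other pattern recognition receptors stand beside the Toll-like family as cytosolic and lectin sensors. Of 17 measured, 14 were higher and 2 lower at 4 h in the authors' deposited table (12 and 5 with edgeR), with a median of 3.47 against 1.73 for the 10 Toll-like receptors. Ifih1, the RNA sensor MDA5, stood at 6.12, Zbp1 at 5.79, the beta-glucan receptor gene Clec7a at -0.90 and Nlrc4 at -1.88 in the authors' deposited table. At 24 h 15 were higher and 1 lower in the authors' deposited table (13 and 4 with edgeR), with Clec4e at 6.54, Zbp1 at 5.43 and Clec7a at -3.19. At 3 d 14 were higher and 1 lower in the authors' deposited table (14 and 2 with edgeR), with Clec4e at 4.13, Zbp1 at 3.36 and Clec7a at -1.53, and a median of 0.81 against 0.36.

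**Figure D4:**
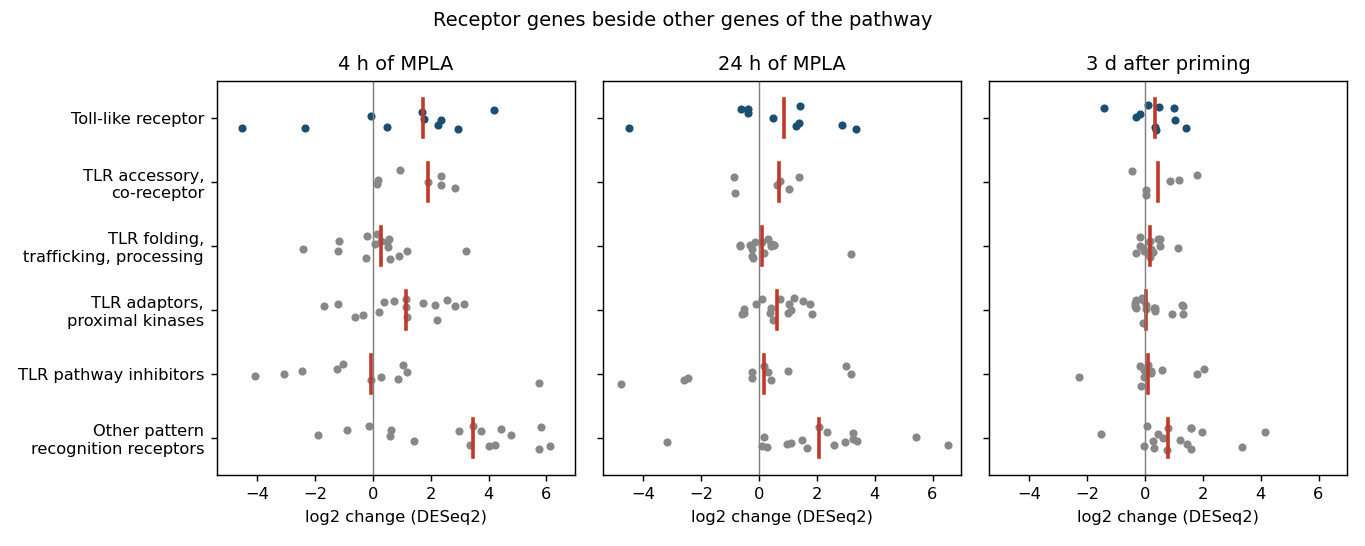
Change of each gene, as log2 of MPLA over control with DESeq2 in the authors' deposited tables, for the 10 receptor genes (dark points) and 5 lists of other genes (grey points) at 3 times. Red lines are medians, which at 4 h are 1.73 for the receptors and 3.47 for other pattern recognition receptors; vertical jitter has no meaning.

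Genes with the most similar course were sought over the 3 DESeq2 changes, by Euclidean distance among 15038 genes tested at all 3 times. With 3 values that share controls, such likeness is a description. Nearest to Tlr3 in the authors' deposited tables were Pnp (distance 0.158) and Ifi203 (0.216), nearest to Tlr1 were Lrrc8c (0.326) and 9130230L23Rik (0.360), nearest to Tlr2 were Arl5c (0.183) and Slc7a7 (0.243) and nearest to Tlr6 were Cacybp (0.0645) and 4932438A13Rik (0.182). Tlr4 lay next to Gm13436 (0.0356) and Ccdc32 (0.0514), Tlr5 next to Fn3k (0.176) and Gm10392 (0.222) and Tlr13 next to Mageh1 (0.0949) and Sept9 (0.136). Tlr7 was nearest to Lrch3 (0.0918) and Gnl1 (0.109), Tlr8 to the ribosomal protein genes Rpl35a (0.0533) and Rps25 (0.102) and Tlr9 to Ptk2b (0.137) and Ddx21 (0.164). Within the family, Tlr2 and Tlr9 were each other's nearest member (0.711), as were Tlr4 and Tlr8 (0.642) and Tlr1 and Tlr3 (1.43), and Tlr5 was farthest from any other member (5.01).

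Promoter windows of 8 of the 10 genes, 250 bases before to 50 after the RefSeq start in GRCm38.p6 (10 windows, as Tlr1 and Tlr6 have 2 starts each), were searched on both strands for 4 short motifs of factors that act in macrophages; Tlr4 and Tlr7 have no entry. The kappa B core, bound by NF-kappaB and searched as GGG, 4 bases of any kind and TCC, was found in windows of Tlr2, Tlr3 and Tlr6, against 19.2% of 32817 windows genome-wide. The core of the interferon-stimulated response element, searched as GAAA, 2 bases of any kind and GAAA, was found in 1 window of Tlr6, where 2 copies on the reverse strand overlap, against 3.43% of all windows. The AP-1 core TGANTCA was found in Tlr9 (7.81% of all windows) and the PU.1 core GAGGAA in Tlr1, Tlr8, Tlr9 and Tlr13 (28.3%). The stretches below carry the matches of genes whose changes stood out or whose motif is rare; they run 5′ to 3′ on the strand of the gene, with matches to any of the motifs in capitals, and positions count from -1, the base before the start. The Tlr2 stretch spans chr3:83841762-83841791 (positions -183 to -154), that of Tlr3 chr8:45410572-45410601 (-221 to -192), that of Tlr13 chrX:106143182-106143211 (-93 to -64), that of Tlr6 chr5:64959238-64959317 (-151 to -72) and that of Tlr9 chr9:106222505-106222584 (-93 to -14). GENCODE starts some transcripts earlier than RefSeq, so all 30 bases of the Tlr3 stretch lie in annotated exons of Tlr3 and Gm45542, as do 6 bases of the Tlr2 stretch and 8 of the Tlr13 stretch in exons of their own gene.
Tlr2, kappa B: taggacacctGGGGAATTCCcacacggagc
Tlr3, kappa B: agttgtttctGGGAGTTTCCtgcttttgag
Tlr13, PU.1: aaaaagagaaGAGGAAggaaatgtctcatg
Tlr6, interferon element: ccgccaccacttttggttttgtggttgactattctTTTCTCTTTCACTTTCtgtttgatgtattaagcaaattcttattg
Tlr9, AP-1: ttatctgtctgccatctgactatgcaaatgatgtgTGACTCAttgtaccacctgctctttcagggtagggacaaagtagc
The kappa B match was thus held by 3 of the 8 genes, which rose at 4 h and 24 h, while the windows of Tlr1 and Tlr9, which rose too, hold none. Counted by window, as the genome-wide shares are, kappa B matches lay in 3 of 10 windows and PU.1 matches in 4 of 10. With so few windows, nothing is read from these counts against 19.2% and 28.3%. The PU.1 match was held by 4 of the 8, of which at 4 h Tlr13 fell, Tlr1 and Tlr9 rose and Tlr8 changed in a direction that depends on the tool. A match shows that these letters are present, not that a factor binds there, and their part in the changes was not tested.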

How the data were processed

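RNA of 12 macrophage libraries was made into stranded polyA libraries, per the labels' protocols. Tools in the submitters' processing notes are TopHat2, HTSeq, bcl2fastq, DESeq, DESeq2 and edgeR, with the build mm10; versions, strand use in counting and annotation release are not given in the sources used here. The authors deposited values for every MPLA group over 1 set of controls. Per the file headers these are log2 fold changes (DESeq2, edgeR and unscaled), p-values with adjusted p-values (DESeq2, edgeR) and a baySeq adjusted likelihood. The baySeq value is read here as an error rate, which the headers do not say. Each of the authors' tables was normalized on its own.

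Signs were turned here to MPLA over control, a direction settled from the order of the groups and from cytokine genes. Reads per group were read from the unscaled log2 ratio by continued fractions (Python 3.11.15), a step chosen after the tables were seen. On simulated data it returned 14998 of 15000 sets of 4 sums exactly, up to a factor common to the 4. Such a factor was divided out before the comparison, so its loss was not tested. The standard error of the authors' DESeq2 change is the change over the normal quantile of its two-sided p, which assumes the Wald test, and was not computed below a p of 1e-300. Exon lengths, positions and shared 50-base windows came from GENCODE M21 (GRCm38). Named were all 10 members, the 2 highest and 2 lowest called genes of each list and time, direct partners of the receptors, and the 2 genes nearest each member. The members and lists were chosen with earlier results of these data known. Some marker and list symbols had no row in the tables used here.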

Additional observations from a re-analysis of the deposited data

How the results depend on the processing

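The tables hold no values per library, so leaving out libraries could not be run. No paired analysis was possible because the columns are comparisons of groups and carry no replicate. Of the 30 gene changes in the authors' deposited tables (10 genes at 3 times), 26 kept sign and call with edgeR, Tlr6 at 3 d turned sign with no call by either tool (-0.03), Tlr8 at 4 h reversed (-0.44), Tlr7 at 24 h lost its call (0.06) and Tlr4 at 4 h gained one (-1.01). With edgeR 4 genes were lower at 4 h instead of 2. Subtracting the median of all tested genes from the DESeq2 changes changed no sign. These medians, -0.04, -0.05 and -0.02, were smaller in size than every receptor change at their time, so no sign could turn. The step was not run on the edgeR changes, whose median at 4 h was -1.05. The unscaled ratio reversed Tlr8 at 4 h (-0.66), Tlr7 at 24 h (-0.042), and Tlr4 (0.93) and Tlr8 (0.75) at 3 d, where the MPLA libraries were deeper. Relative to the summed reads of all 10 members, a measure added after the data were seen, Tlr8 at 4 h (-0.65), Tlr7 at 24 h (-0.12) and at 3 d (-0.054) and Tlr13 at 3 d (-0.0082) reversed, and Tlr6 at 3 d, which was not called, turned to -0.28. A minimum of 2-fold left 6 called genes at 24 h, 1 of them lower, and 3 at 3 d, 2 higher and 1 lower. At 3 d the baySeq error rate, and agreement of all 3 methods, each left 5 higher genes instead of 6, without Tlr7, and 1 lower gene instead of 3, without Tlr4 and Tlr8. Of the 20 nearest genes, 16 were the same with edgeR. Beyond the tools' own construction, the cause of these differences was not tested. Depth limits Tlr5, Tlr11 and Tlr12, whose groups held at most 142 reads. Among the list genes it also limits Il1rl1, with 1 read at 24 h, Sigirr, with 25 at 4 h, and Lbp, with 39 at 24 h.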
